A study of Mus musculus with 6 samples.

Results

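The genes described here are 9 genes of the interleukin-6 (IL-6) family and its gp130 receptor system in cultured mouse lung fibroblasts. They are 3 secreted ligands (Il6, Lif and Il11), the 5 receptor chains Il6st, Osmr, Lifr, Il6ra and Il11ra1, and the transcription factor gene Stat3. They were picked by gene symbol from a table of 55487 genes, and each symbol matched a single row. All 9 passed the filter on low counts, as did 15801 genes in all. The 3 treated libraries came from fibroblasts kept for 24 h with 1 µg/mL of rmCIRBP, a recombinant form of the mouse cold-inducible RNA-binding protein CIRBP. The 3 control libraries came from fibroblasts given PBS for the same time. All cells were primary cells from the lungs of wild-type C57BL/6 mice, held in 0.1% serum for 24 h before the treatment. The labels give no age or sex and do not say whether replicates were separate animals or cultures, so each p-value reflects library-to-library spread alone, possibly of technical origin.

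The IL-6 family is a group of cytokines of which most, IL-6, LIF and IL-11 among them, signal through gp130, the shared receptor chain encoded by Il6st. IL-6 and IL-11 first bind private alpha chains, encoded by Il6ra and Il11ra1, while leukemia inhibitory factor (LIF) and oncostatin M pair gp130 with the chains encoded by Lifr or Osmr. The bound receptors switch on JAK kinases, which phosphorylate STAT3, and SOCS3 is the classical brake on the pathway. In lung, IL-6 is known as a fibroblast product in inflammation, and IL-6 and IL-11 have been studied for their part in fibrosis. The title of the study places IL-6 signalling downstream of TLR2 and TLR4 in fibroblasts exposed to CIRBP.

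Depth was 13677385 to 14001478 counts in the rmCIRBP libraries and 12105584 to 14262375 counts in the PBS libraries, so that a count of 0 allows up to 0.210 to 0.248 CPM (the count divided by the library total, times 1000000), a limit that covers counting error only. Fibroblast markers summed to 19750 to 26468 CPM in rmCIRBP and 24178 to 29062 CPM in PBS. Macrophage markers, of which 3 of 9 tested rose and 3 fell, summed to 128 to 169 CPM in rmCIRBP and 125 to 168 CPM in PBS. Neutrophil markers summed to 2.51 to 4.39 CPM in rmCIRBP and 0 to 0.246 CPM in PBS, with S100a9, Ly6g, Elane and Cxcr2 at 0 in every library. Lymphocyte markers summed to at most 1.32 CPM in rmCIRBP and 1.15 CPM in PBS, and epithelial markers to at most 6.21 CPM in rmCIRBP and 5.12 CPM in PBS. Mesothelial markers summed to 2.57 to 5.70 CPM in rmCIRBP and 8.51 to 13.6 CPM in PBS, and endothelial markers to 5.89 to 8.19 CPM in rmCIRBP and 19.2 to 27.4 CPM in PBS. The endothelial markers did not move together. Kdr (mean 1.23 CPM in rmCIRBP and 14.1 CPM in PBS) and Tek (4.21 and 8.57 CPM) fell, and Vwf (0.939 and 0.610 CPM) was not called. Pecam1 and Cdh5 were too low to be tested, and Cldn5 was at 0 in every library. Of the mesothelial markers, Upk3b fell and Msln was not called. The part of these cell types in the results was not tested. The library rmCIRBP 2 stood apart: smooth muscle markers summed to 9792 CPM there, against 4517 and 1877 CPM in rmCIRBP 1 and rmCIRBP 3 and 2537 to 5127 CPM in PBS. The early response gene Fos was at 56.3 CPM in rmCIRBP 2, against 589 and 456 CPM in the other rmCIRBP libraries. Of the 9 members, 8 had their lowest rmCIRBP value in rmCIRBP 2, as did 39.2% of all genes tested, so results that rest on this library are given with and without it.

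Of the 9 members, 2 rose after rmCIRBP, Il6 and Lif, and none fell, at an adjusted p of 0.05 (edgeR's quasi-likelihood F test, with Benjamini-Hochberg adjustment over 15801 genes). Over all genes tested, 6.74% rose and 4.77% fell by the same test. At an unadjusted p of 0.05, 4 members were higher and 0 lower, and 4547 of the 15801 genes passed in either direction. DESeq2 called 3 members higher and 0 lower, against 1446 and 1172 of all genes. By limma voom 2 members were higher and 0 lower, against 1016 and 722 of all genes. In 3 members, Il6, Lif and Il6ra, every rmCIRBP library lay above every PBS library in CPM, which held for 16.0% of all genes, and no member lay wholly below, which held for 18.8%. The median log2 fold change was 0.29 over the members and -0.01 over all genes tested. Without rmCIRBP 2 the count of members that rose was 4, Il6ra and Osmr being added, and 1015 of the 16264 genes then tested rose. RNA of whole cultures cannot tell fewer cells of a type from less RNA per cell.

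**Figure D1:**
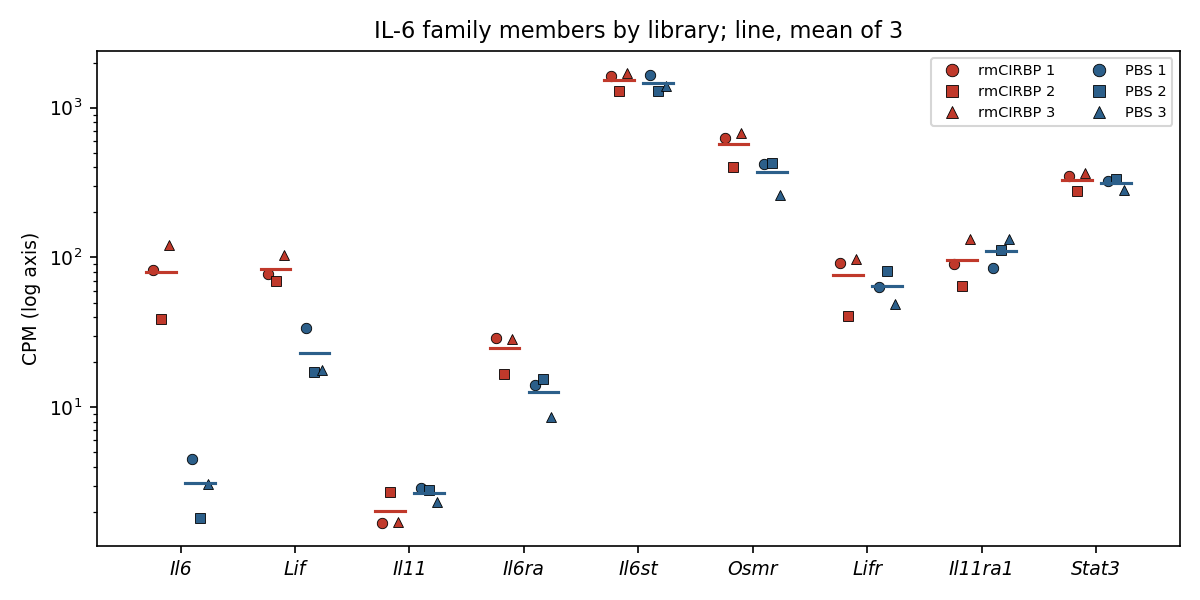
CPM of the 9 members in each library on a log axis, with rmCIRBP libraries in red left of PBS libraries in blue, a symbol for each replicate number and a line at the mean of 3. The groups are apart for Il6, Lif and Il6ra and overlap for the other 6, and rmCIRBP 2 (red square) is the lowest rmCIRBP library in 8 of 9 genes.

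Il6 encodes the founding cytokine of the family, a driver of the acute-phase response (ENSMUSG00000025746, chromosome 5, 30013114 to 30019981, plus strand, GRCm38). It was read at 82.3, 38.6 and 121 CPM in rmCIRBP 1, 2 and 3, against 4.52, 1.82 and 3.09 CPM in PBS 1, 2 and 3. Every treated library was several times above every control, and within the treated group rmCIRBP 2 was at 0.381 of the mean of the other libraries. The values rest on 1126, 538 and 1689 reads in rmCIRBP and 55, 22 and 44 reads in PBS. Relative to PBS, the log2 fold change was 4.71 ± 0.49 (SE, n = 3 each; adjusted p by edgeR = 0.00126), with a 95% interval from 3.57 to 5.85. By size it was the 71st increase among the genes tested and by p the 160th change. Without rmCIRBP 2 the log2 fold change was 5.05, and over 17 alternatives it lay between 4.29 and 5.40 with adjusted p of at most 0.0120.

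The bases before the start of Il6 are shown because Il6 rose the most of the members and was the only member with matches to 3 of the 4 motifs searched. The motifs were TTCNNNGAA for STAT factors, TTGCNNAA for C/EBP factors, TGANTCA for AP-1 and the NF-kB consensus, sought on both strands in the 250 bases before each start in RefSeq's promoter table (GRCm38.p6). All 9 members had an entry, 12 in all. In the Il6 sequence (chr5:30012864-30013113, plus strand, 5′ to 3′), the capitals mark, from left to right, the AP-1, C/EBP and NF-kB matches, which do not overlap.
Il6 promoter: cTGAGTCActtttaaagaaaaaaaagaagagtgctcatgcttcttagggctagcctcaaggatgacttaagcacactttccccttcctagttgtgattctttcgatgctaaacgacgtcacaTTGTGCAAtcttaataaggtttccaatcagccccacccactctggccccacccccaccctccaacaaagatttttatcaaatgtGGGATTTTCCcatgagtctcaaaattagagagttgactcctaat
The AP-1 match began 249 bases before the start, the C/EBP match 128 bases and the NF-kB match 44 bases. Among all 32851 promoter entries, 6.75% held an AP-1 match, 9.56% a C/EBP match, 3.90% an NF-kB match and 7.02% a STAT match, and 10 entries held the first 3 of these together. Besides Il6, the AP-1 motif was matched in an entry of Lif and in an entry of Il11, and no entry of a receptor chain or of Stat3 held any of the 4 motifs. A match is a description of the letters and not evidence of a bound site.

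Lif encodes leukemia inhibitory factor, known for maintaining mouse embryonic stem cells and for inflammatory roles (ENSMUSG00000034394, chromosome 11, 4257557 to 4272514, plus strand). Its level was 77.6, 69.8 and 103 CPM in rmCIRBP 1, 2 and 3, against 33.6, 17.1 and 17.8 CPM in PBS 1, 2 and 3. The groups did not overlap, and PBS 1 was the highest control. Lif rose with a log2 fold change of 1.90 ± 0.29 (SE; adjusted p by edgeR = 0.00648; 95% interval 1.23 to 2.57). Over 17 alternatives the log2 fold change lay between 1.71 and 2.43, with adjusted p of at most 0.0330. Lif lies 16530 bases from Osm, the oncostatin M gene, with no gene of the table between them. Osm had 4, 3 and 3 reads in rmCIRBP and 0 in each PBS library, too few to pass the filter, which is at least 3.09-fold higher against 3 counts over the PBS group. Without a filter on low counts its adjusted p was 0.120.

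Il11 encodes interleukin-11, a cytokine studied as a fibroblast product in fibrosis (ENSMUSG00000004371, chromosome 7, 4772373 to 4782859, minus strand). It was low, with 1.68, 2.73 and 1.71 CPM in rmCIRBP and 2.88, 2.81 and 2.31 CPM in PBS, from 23, 38 and 24 reads in rmCIRBP and 35, 34 and 33 reads in PBS. The groups overlapped, since rmCIRBP 2 lay among the controls. With these counts the log2 fold change was -0.35 ± 0.31 (SE; adjusted p by edgeR = 0.490), with a 95% interval from -1.06 to 0.36. Without rmCIRBP 2 the log2 fold change was -0.61 (adjusted p by edgeR = 0.311). The log2 ratio of Il6 to Il11 within a library, on log2(CPM + 0.5), was 4.87 ± 1.13 in rmCIRBP and 0.14 ± 0.57 in PBS (SD, n = 3 each). The difference of 4.74 had p = 0.1 in a two-sided exact permutation test, the smallest that 3 against 3 allows, and 0.1 after adjustment over 4 ratios.

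The 3 ligand genes had in common AU-rich elements in the 3′ untranslated region, a feature through which decay factors shorten the life of cytokine mRNAs. The search was added after the values had been seen. In the GENCODE M21 transcript with the longest coding part, the heptamers TATTTAT or TATTTAA occurred 2 times in Il6, 7 times in Lif and 7 times in Il11, and 0 times in each of the other 6 members. Among 20047 coding genes with a 3′ untranslated region of at least 50 bases, 36.6% held such a heptamer. Il6 packed 6 ATTTA pentamers into 427 bases (14.1 per kb), a density reached by 0.449% of these genes, and Il11 had 8.38 per kb, reached by 2.17%. Lif, with a longer region of 3180 bases, had 2.20 per kb, reached by 32.4%, and the median gene had 1.18. By this density Lifr (5.23 per kb, reached by 7.37%) and Osmr (2.23 per kb) were above Lif, and the other receptor chains and Stat3 were below it. The elements occurred in Il6 and Lif, which rose, and in Il11, which was not called. The 30-base stretches below, of GRCm38 transcripts and numbered within the untranslated region, were taken where the heptamers (capitals) were densest. They are at bases 179 to 208 in Il6, 1143 to 1172 in Lif and 40 to 69 in Il11, and the Il11 stretch holds 3 overlapping heptamers.
Il6: atttatgattgaTATTTATtatttttatga
Lif: gtcTATTTATtactatgtccTATTTATatt
Il11: ccagatctTATTTATTTATTTATtttggta

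Il6st encodes gp130, the signalling chain that IL-6, LIF and IL-11 share (ENSMUSG00000021756, chromosome 13, 112464070 to 112510086, plus strand). It was the most abundant member, at 1628, 1290.4 and 1698 CPM in rmCIRBP, against 1662, 1290.0 and 1406 CPM in PBS. The groups overlapped almost fully. For gp130 the log2 fold change was 0.11 ± 0.17 (SE; adjusted p by edgeR = 0.707), with a 95% interval from -0.29 to 0.51.

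Osmr encodes the oncostatin M receptor chain, which joins gp130 to form the oncostatin M receptor (ENSMUSG00000022146, chromosome 15, 6813577 to 6874969, minus strand). It was at 627, 403 and 679 CPM in rmCIRBP, against 421, 424 and 263 CPM in PBS. The groups overlapped through rmCIRBP 2, which lay below PBS 1 and PBS 2. Osmr did not pass, with a log2 fold change of 0.66 ± 0.26 (SE; adjusted p by edgeR = 0.139; 95% interval 0.06 to 1.25). Without rmCIRBP 2 the log2 fold change was 0.86 (adjusted p by edgeR = 0.0433), and over 17 alternatives adjusted p ranged from 0.0238 to 0.339.

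Lifr encodes the LIF receptor chain and lies 215644 bases from Osmr on chromosome 15, with no protein-coding gene between them (ENSMUSG00000054263, 7090614 to 7197489, plus strand). Its values were 91.3, 40.8 and 98.2 CPM in rmCIRBP, against 63.1, 81.0 and 48.9 CPM in PBS. Here rmCIRBP 2 was the lowest of all 6 libraries and the other treated libraries were the highest. The log2 fold change was 0.29 ± 0.33 (SE; adjusted p by edgeR = 0.598; 95% interval -0.46 to 1.04), and 0.60 without rmCIRBP 2 (adjusted p by edgeR = 0.0989, which is also the lowest over 17 alternatives, the highest being 0.929).

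The ratio of Osmr to Lifr, which does not depend on library scaling apart from the pseudocount, was higher in every rmCIRBP library than in any PBS library. On the log2 scale it was 2.77, 3.29 and 2.78 in rmCIRBP 1, 2 and 3, against 2.73, 2.38 and 2.42 in PBS 1, 2 and 3. The lowest treated value and the highest control value were close, at 2.77 and 2.73. The mean difference of 0.44 had p = 0.1 in a two-sided exact permutation test, the smallest possible. It lay between 0.27 and 0.55 when each library was left out in turn, the lowest being without rmCIRBP 2. The two-sided exact permutation p was 0.2 without rmCIRBP 2, and from 0.1 to 0.3 over all these settings.

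Il6ra encodes the IL-6 receptor alpha chain, whose membrane or shed form presents IL-6 to gp130 (ENSMUSG00000027947, chromosome 3, 89864059 to 89913196, minus strand). It was at 28.8, 16.6 and 28.7 CPM in rmCIRBP, against 14.0, 15.4 and 8.62 CPM in PBS. The groups did not overlap, although rmCIRBP 2 and PBS 2 were close. The log2 fold change was 1.00 ± 0.29 (SE; adjusted p by edgeR = 0.0613; 95% interval 0.34 to 1.66), so that Il6ra missed the threshold. It was called without rmCIRBP 2 (log2 fold change 1.23, edgeR adjusted p = 0.0141) and by DESeq2 (adjusted p = 0.0106), and adjusted p ranged from 0.00539 to 0.171 over 17 alternatives. An antisense gene, Gm42809, overlaps Il6ra with 26, 12 and 25 reads in rmCIRBP and 6, 14 and 8 reads in PBS, and without a stated strand setting reads of the pair cannot be told apart.

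Il11ra1 encodes the IL-11 receptor alpha chain (ENSMUSG00000073889, chromosome 4, 41699989 to 41769474, plus strand). Its values were 91.1, 64.3 and 133 CPM in rmCIRBP, against 84.6, 112 and 133 CPM in PBS, and the groups overlapped. The log2 fold change was -0.15 ± 0.27 (SE; adjusted p by edgeR = 0.746; 95% interval -0.77 to 0.46) and 0.07 without rmCIRBP 2. Its near-identical copy Il11ra2 had 0, 1 and 0 reads in rmCIRBP and 2, 3 and 2 in PBS, and the annotated span of Il11ra1 overlaps 6 other genes, among them Galt on the same strand, so its counts are uncertain. The log2 ratio of Il6ra to Il11ra1 was -1.92 ± 0.27 in rmCIRBP and -3.08 ± 0.70 in PBS (SD, n = 3 each). It was higher in each treated library, by 1.16 on average (two-sided exact permutation p = 0.1, the smallest possible).

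Stat3, the transcription factor that gp130 activates by phosphorylation, had 349, 279 and 366 CPM in rmCIRBP, against 322, 335 and 281 CPM in PBS (ENSMUSG00000004040, chromosome 11, 100885098 to 100939540, minus strand). The groups overlapped. The log2 fold change was 0.12 ± 0.15 (SE; adjusted p by edgeR = 0.648; 95% interval -0.22 to 0.45). RNA level does not report phosphorylation, which was not measured. The neighbouring gene Stat5a overlaps Stat3 on the other strand.

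**Figure D2:**
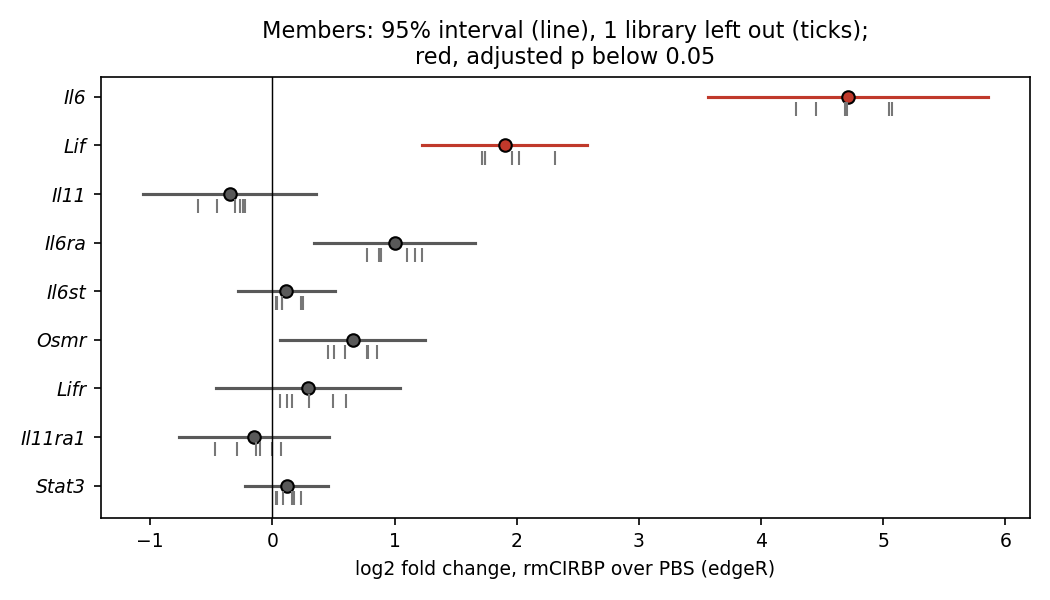
Log2 fold change of rmCIRBP over PBS for the 9 members, with the edgeR 95% interval as a line and the values with each library left out as ticks below it. Il6 (4.71) and Lif (1.90) are in red as past the adjusted threshold, and the intervals of Il6ra and Osmr also lie above 0 although neither passed.

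Levels of different genes were compared per length, as CPM per kb of merged exons. In rmCIRBP the order of means was Il6st (139 ± 19.6), Osmr (47.0 ± 12.1), Stat3 (34.8 ± 4.83), Il6 (33.2 ± 16.9), Il11ra1 (21.5 ± 7.72), Lif (19.2 ± 4.01), Lifr (7.12 ± 2.91), Il6ra (2.86 ± 0.813) and Il11 (0.981 ± 0.286; SD, n = 3 each). From Osmr down to Lif, neighbours overlapped in their ranges, while Il6st stood clear above and Lifr, Il6ra and Il11 each stood clear below. In PBS the order was Il6st (131 ± 17.1), Stat3 (32.8 ± 2.99), Osmr (30.5 ± 7.59), Il11ra1 (24.5 ± 5.43), Lifr (5.97 ± 1.49), Lif (5.25 ± 2.14), Il6ra (1.46 ± 0.412), Il6 (1.29 ± 0.557) and Il11 (1.28 ± 0.147; SD, n = 3 each). There the ranges of Stat3, Osmr and Il11ra1 overlapped between neighbours, as did those of Lifr and Lif and those of Il6ra, Il6 and Il11. Il6 took place 4 in rmCIRBP and place 8 in PBS. With the length of the longest transcript in place of merged exons, Osmr was at 104 CPM per kb in rmCIRBP and 67.2 CPM per kb in PBS, the values that this choice moved most, and took the second place in both groups. With that length Stat3 was at 54.8 CPM per kb in rmCIRBP and 51.8 CPM per kb in PBS, and Il11ra1 at 36.9 CPM per kb in rmCIRBP and 42.1 CPM per kb in PBS. Il6 then took place 5 in rmCIRBP and place 9, the last, in PBS.

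Among the 5 receptor chains, gp130 held most of the transcripts per length. Il6st made up 63.6%, 68.6% and 60.9% of their summed CPM per kb in rmCIRBP, against 71.0%, 62.7% and 69.0% in PBS. Osmr made up 22.5%, 19.6% and 22.3% in rmCIRBP, against 16.5%, 18.9% and 11.8% in PBS, without overlap, although rmCIRBP 2 and PBS 2 were close. These percentages rest on merged exon lengths, a choice that matters most for Osmr, and were not computed with the longest transcript. Il6ra was the scarcest chain in each library, with 1.45%, 1.13% and 1.32% in rmCIRBP and 0.766%, 0.959% and 0.543% in PBS, also without overlap. The log2 ratio of Il6st to Il6ra was 5.97 ± 0.24 in rmCIRBP and 6.82 ± 0.46 in PBS (SD, n = 3 each), lower by 0.85 in rmCIRBP (difference -0.85; two-sided exact permutation p = 0.1, the smallest possible).

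**Figure D3:**
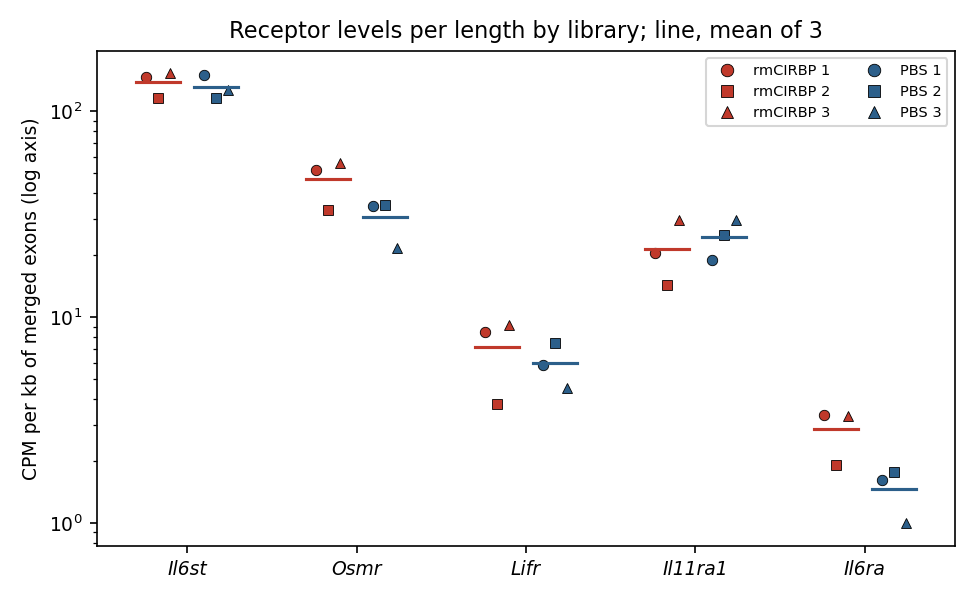
CPM per kb of merged exons, on a log axis, of the 5 receptor chains in each library, with rmCIRBP in red left of PBS in blue and a line at the mean of 3. Il6st lies above all other chains in both groups and Il6ra below them, with a mean of 2.86 in rmCIRBP and 1.46 in PBS.

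The genes whose centred log2 CPM profile over the 6 libraries lay nearest to that of Il6, among 12509 protein-coding genes of at least 1 CPM, were Tlr2, Madcam1, Itih5, D630003M21Rik and Csf3. The root mean square difference was 0.28 for Tlr2 and 0.34 for Csf3, in log2 units, with Pearson's r of 0.994 and 0.990 across libraries that share the treatment contrast. Tlr2, a receptor for bacterial lipoproteins named in the study's title, was at 103, 39.1 and 115 CPM in rmCIRBP and 3.04, 1.73 and 3.65 CPM in PBS, and like Il6 it was lowest of the treated libraries in rmCIRBP 2. Csf3 encodes granulocyte colony-stimulating factor. Nearest to Lif were Apol6, Ctps, Ggct, Tmem176b and Tmem176a, with differences of 0.14 to 0.20. Nearest to Il11 were Tmtc4, Cited2, Wwc1, 4931406P16Rik and Hoxb9, with differences of 0.06 to 0.10, and none of these 5 was called. These are likenesses of profile over 6 libraries and no more.

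Of 14 other listed ligands and receptors of the family, 5 passed the filter on low counts, of which 1 rose and 1 fell (median log2 fold change 0.02). The shares over all genes tested were 6.74% and 4.77%. Il27ra, the receptor chain for interleukin-27, rose to 6.29, 3.81 and 5.50 CPM in rmCIRBP, against 2.30, 1.98 and 1.61 CPM in PBS (log2 fold change 1.43 ± 0.30, SE; adjusted p by edgeR = 0.0205). The call of Il27ra ended without rmCIRBP 1 (adjusted p by edgeR = 0.0856), rmCIRBP 3 (0.0520), PBS 2 (0.0791) or PBS 3 (0.0819). Such losses were common: of 1818 calls over all genes, 729, 716 and 839 remained without rmCIRBP 1, PBS 2 or PBS 3. Clcf1, which encodes cardiotrophin-like cytokine, had a log2 fold change of 0.02 ± 0.20, Ctf1, cardiotrophin 1, -0.25 ± 0.33, and Cntfr, the alpha chain for ciliary neurotrophic factor, 0.83 ± 0.33 (SE; adjusted p by edgeR = 0.966, 0.659 and 0.141).

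Of 23 listed genes of JAK-STAT and adaptor signalling, a list not limited to gp130, 22 were tested and 3 rose (median log2 fold change 0.15). Over all genes tested, 6.74% rose and 4.77% fell. In the list 0 fell by edgeR, with 2 lower at an unadjusted p of 0.05 and 0 by DESeq2 or limma voom. Jak2, a kinase of cytokine receptors, was at 259, 171 and 209 CPM in rmCIRBP, against 65.6, 60.4 and 52.3 CPM in PBS (log2 fold change 1.87 ± 0.18, SE; adjusted p by edgeR = 0.000778). Jak1, the kinase held to be most needed for gp130 signalling, rose by 0.41 ± 0.10 (SE; adjusted p by edgeR = 0.0420) on the log2 scale. That call was lost when any 1 of the 6 libraries was left out, with edgeR adjusted p between 0.0560 and 0.151, and with upper quartile scaling (0.0627). Tyk2, the other gp130 kinase, had a log2 fold change of 0.13 ± 0.13, and Ptpn11, the phosphatase SHP2 that links gp130 to MAP kinase, 0.32 ± 0.11 (SE; adjusted p by edgeR = 0.539 and 0.109).

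Of 18 listed genes that restrain signalling, not all particular to gp130, 3 rose and none fell (6.74% and 4.77% over all genes tested). The list's median log2 fold change was 0.01, with 0 lower at an unadjusted p of 0.05 by edgeR and 0 by DESeq2 or limma voom. Socs3, the main feedback inhibitor of gp130, was not among the genes that rose. It was at 129, 32.7 and 165 CPM in rmCIRBP, against 79.5, 92.2 and 88.8 CPM in PBS, so rmCIRBP 2 was the lowest of all libraries and the other treated libraries the highest (log2 fold change 0.36 ± 0.48, SE; adjusted p by edgeR = 0.657). Without rmCIRBP 2 its log2 fold change was 0.80 (adjusted p by edgeR = 0.00847), over a range of adjusted p from 0.00847 to 0.949 in 17 alternatives. The part of the smooth muscle markers and early response genes that set rmCIRBP 2 apart was not tested. The genes that rose were Socs1, an inhibitor of JAK kinases (1.01 ± 0.22; adjusted p by edgeR = 0.0269), and the phosphatases Ptpn1 (0.68 ± 0.16; 0.0363) and Ptpn2 (0.83 ± 0.16; 0.0169), which dephosphorylate JAKs and STATs (log2 fold change ± SE). All 3 calls ended without rmCIRBP 1 (adjusted p by edgeR = 0.0879, 0.120 and 0.0706), PBS 2 (0.0767, 0.101 and 0.0744) or PBS 3 (0.100, 0.124 and 0.0611), those of Socs1 and Ptpn1 also without rmCIRBP 3 (0.0626 and 0.0833), and that of Socs1 without PBS 1 (0.0521).

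Of 24 listed genes known as STAT3 targets, 22 were tested, 14 rose and none fell (6.74% and 4.77% over all genes tested). The list's median log2 fold change was 1.51, against -0.01 over all genes. In the list 0 were lower at an unadjusted p of 0.05 by edgeR and 0 by DESeq2 or limma voom. The list was chosen with earlier results of these data known and its count is no independent evidence, and several of these genes are also known targets of NF-kB or interferon signalling. The 6 with the smallest p were the acute-phase genes Saa3 (log2 fold change 13.46 ± 0.36) and Hp (6.62 ± 0.37), the adhesion receptor Icam1 (3.42 ± 0.23), the transcription factor Irf1 (1.88 ± 0.15), the protease inhibitor Timp1 (2.51 ± 0.23) and the NF-kB cofactor Bcl3 (2.67 ± 0.28; SE in each case), with edgeR adjusted p from 4.84e-06 to 0.00129. Saa3 had 6 reads in all over PBS. Lcn2, named after its values were seen, had no read in PBS and was at least 4273-fold higher against 3 counts over the group, from 214, 67.1 and 712 CPM in rmCIRBP. Fos, Junb, Mcl1, Bcl2l1, Ccnd1, Vegfa, Muc1 and Socs3 were the tested genes that did not pass. The call of Myc (log2 fold change 1.42 ± 0.30, SE), named for this reason, ended without PBS 2 (adjusted p by edgeR = 0.0908) or PBS 3 (0.0729).

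Of 19 genes that control Il6 transcription or the decay of its mRNA, 8 rose and none fell (6.74% and 4.77% over all genes tested). The list's median log2 fold change was 0.85, with 0 lower at an unadjusted p of 0.05 by edgeR and 0 by DESeq2 or limma voom. Cebpb and Cebpd stand in the STAT3 list too. The NF-kB subunit gene Nfkb1 was at 237, 236 and 231 CPM in rmCIRBP, against 89.1, 101 and 94.2 CPM in PBS (log2 fold change 1.34 ± 0.10, SE; adjusted p by edgeR = 0.000221), and Rela (0.85 ± 0.10) and Rel (1.22 ± 0.17) rose with it. These subunit genes were about level across the treated libraries. Of the other genes of the list that rose, Cebpb, Cebpd, Nfkbiz and Zc3h12a were lowest of the treated libraries in rmCIRBP 2, and Arid5a was not. Over all genes tested, 39.2% were lowest there. Among genes of the list that did not pass, some were lowest there and others were not. Fos, Jun and Zfp36l1, named after their values were seen, were lowest there. The part of any of these genes in the level of Il6 was not tested. In rmCIRBP 1, 2 and 3, Cebpb had 281, 161 and 300 CPM, Cebpd 402, 221 and 495 CPM, and Nfkbiz 341, 153 and 395 CPM. Zc3h12a, the RNase Regnase-1 that cuts Il6 mRNA, was at 116, 89.3 and 142 CPM in rmCIRBP, against 20.1, 15.9 and 17.0 CPM in PBS (log2 fold change 2.74 ± 0.20, SE; adjusted p by edgeR = 0.000218). Arid5a, which protects Il6 mRNA from that RNase, was at 19.8, 21.3 and 22.0 CPM in rmCIRBP, against 6.24, 4.63 and 3.86 CPM in PBS (log2 fold change 2.13 ± 0.21, SE; adjusted p by edgeR = 0.000936). Cebpb (1.48 ± 0.23) rose as well. Zfp36, tristetraprolin, which binds AU-rich elements and is named after its values were seen, had 512, 140 and 574 CPM in rmCIRBP, against 271, 363 and 439 CPM in PBS, and did not pass (log2 fold change 0.23 ± 0.46, SE; adjusted p by edgeR = 0.778). For Zfp36, rmCIRBP 2 was the lowest of all libraries and the other treated libraries were the highest. Over 17 alternatives its log2 fold change lay between -0.11 and 0.65, with adjusted p from 0.0554 to 0.991. Cebpd (2.06 ± 0.36), named like Nfkbiz because a library decided its call, lost its call without PBS 2 (adjusted p by edgeR = 0.0577). Nfkbiz, which encodes the NF-kB cofactor required for Il6 induction in mouse macrophages, had a log2 fold change of 1.27 ± 0.31 (adjusted p by edgeR = 0.0385). Its call ended when any library but rmCIRBP 2 was left out (adjusted p by edgeR = 0.0739 to 0.134).

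Of 5 genes that control the shedding of IL-6 receptor and other surface proteins, 2 rose (median log2 fold change 0.19). Over all genes tested, 6.74% rose and 4.77% fell. Adam17, the protease that sheds the IL-6 receptor alpha chain, was at 145, 106 and 143 CPM in rmCIRBP, against 73.4, 69.0 and 77.0 CPM in PBS (log2 fold change 0.88 ± 0.14, SE; adjusted p by edgeR = 0.00767). Rhbdf2, which encodes iRhom2, the escort that brings ADAM17 to the surface, was at 63.8, 54.6 and 69.3 CPM in rmCIRBP, against 18.5, 19.2 and 17.5 CPM in PBS (log2 fold change 1.80 ± 0.13, SE; adjusted p by edgeR = 0.000210). Adam10, a related sheddase, had a log2 fold change of 0.19 ± 0.12 (SE; adjusted p by edgeR = 0.346). In this list 0 fell by edgeR, with 1 lower at an unadjusted p of 0.05, Timp3, an inhibitor of ADAM17. Its log2 fold change was -0.61 ± 0.18 (SE; adjusted p by edgeR = 0.0711). Timp3 was called lower by DESeq2 and not by limma voom.

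**Figure D4:**
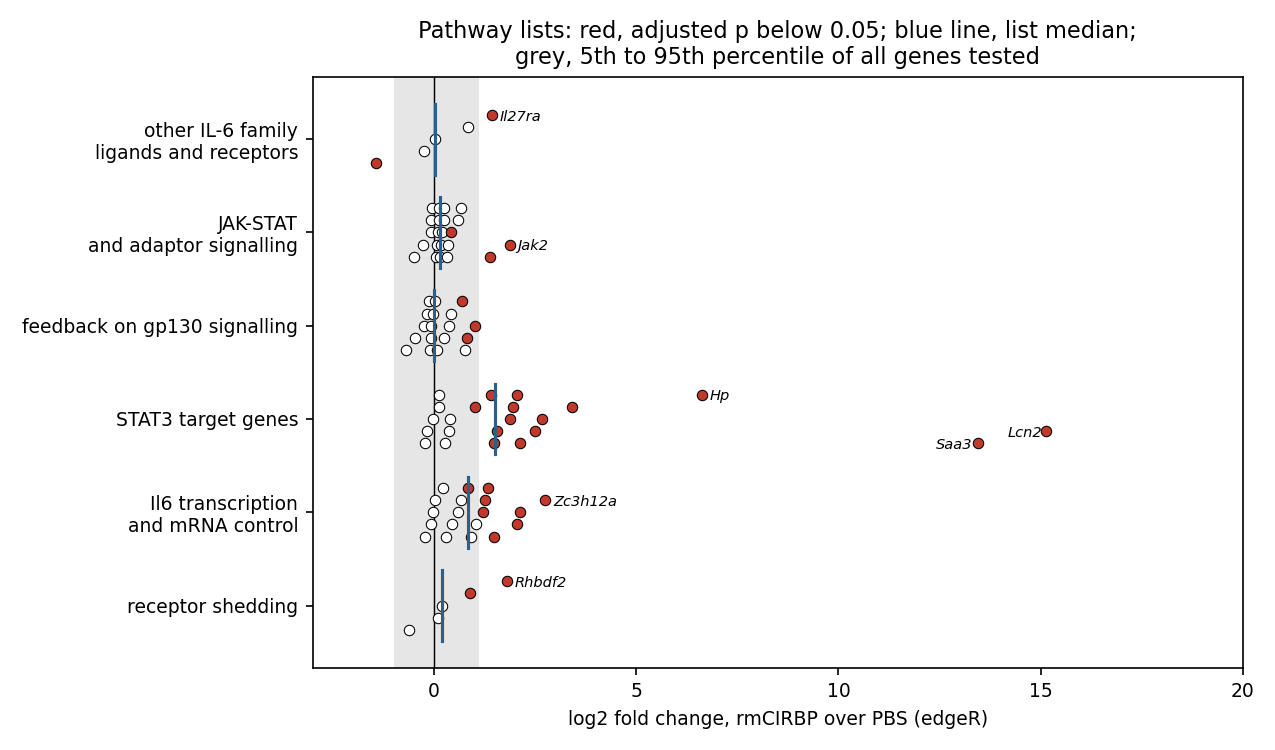
Log2 fold change of rmCIRBP over PBS for the tested genes of 6 lists, in red where the adjusted p is below 0.05, with the list median as a blue line and the 5th to 95th percentile of all genes tested in grey. STAT3 target genes have the highest median (1.51) and the feedback list is centred near 0 (0.01). The lists were chosen with earlier results of these data known, so the order of their medians is no independent evidence. The point of Lcn2, which had no read in PBS, depends on the prior count of the fit.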

How the data were processed

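The authors deposited raw counts of reads per gene, 1 column per library, from polyA-selected TruSeq mRNA libraries per the labels' protocols. The submitters' processing notes name featureCounts, DESeq2, R 4.1.2 and the mouse build GRCm38 (mm10) without saying how each was used. For the aligner, the strand setting and the handling of multi-mapping reads, the sources used here state nothing.

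From these counts, genes were filtered with filterByExpr, scaled by TMM and tested with edgeR 4.0.16 (quasi-likelihood F test, R 4.3.3; 95% intervals), with Benjamini-Hochberg adjustment over 15801 genes at 0.05. limma 3.58.1 and DESeq2 1.42.0 served as alternatives, and the procedure was tested on simulated data. Ratios used log2(CPM + 0.5) and two-sided exact permutation tests. Lengths and untranslated regions came from GENCODE M21 and promoters from RefSeq (GRCm38.p6). No library pair agreed within sampling noise. Depth is given in the report. Every member is named. Of each list, up to 6 called genes of smallest p per direction are named, plus defining family genes, and others are marked in the text. The members and lists were chosen with earlier results of these data known. Some genes of the lists count in the totals and are not reported here by name.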

Additional observations from a re-analysis of the deposited data

How the results depend on the processing

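Il6 and Lif kept their direction and their call under each of 17 alternatives in scaling, filter, test and libraries at the 0.05 threshold, and no member was called lower. Il11ra1 changed sign in a single setting, without rmCIRBP 2 (log2 fold change 0.074), and its log2 fold changes ranged from -0.47 to that value. Members that rose numbered 2 to 4 with 1 library left out, 4 with no filter on low counts and 4 without PBS 1 and rmCIRBP 2 together, a setting chosen after seeing the data. Over all genes, 513 to 1299 rose and 203 to 845 fell with 1 library left out. With no filter, 1535 of 28056 genes rose and 1072 fell. With adjusted p below 0.01, 456 rose and 152 fell, with 0.1 the counts were 1653 and 1413, and without PBS 1 and rmCIRBP 2 they were 1669 and 1133. DESeq2 called 1172 lower. Upper quartile scaling, which moved the median log2 fold change of all genes to -0.07, gave 925 higher and 1022 lower, against 1065 and 753 with TMM. JAK-STAT genes that rose numbered 5 with no filter, by DESeq2, at 0.1 and without PBS 1 and rmCIRBP 2 (where 1 fell), 1 at 0.01, and 1 to 3 with 1 library left out. In the other-family list 0 rose and 0 fell at 0.01, and 0 to 1 each with 1 library left out. Feedback genes that rose numbered 0 at 0.01 and 0 to 4 with 1 library left out. In the shedding list 1 fell with upper quartile scaling, no filter, DESeq2, 0.1 or without PBS 1 and rmCIRBP 2, and 0 to 1 with 1 library left out. The cause of these shifts was not tested. The labels link same-numbered libraries by nothing but the number. The correlations of their deviations were -0.11, -0.17 and 0.25, too few values to decide whether they were paired. With the replicate number as a block, 792 genes rose and 466 fell, and 1 feedback gene rose. Depth limits what can be said of Il11, with 23 to 38 reads per library, and of Osm, with 0 to 4.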
